A study of Homo sapiens with 8 samples.

Results

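The genes described are 10 transporters of neutral amino acids and amino acid exchangers of the plasma membrane: SLC3A2, SLC7A5, SLC7A6, SLC7A7, SLC7A11, SLC1A5, SLC1A4, SLC38A1, SLC38A2 and SLC43A1. They were taken by gene symbol, from a list chosen with earlier results of these data known. All 10 were found among 22653 entries measured, of which 15340 were genes with a symbol. Poly(A) RNA was sequenced from U937 SLC19A1-/- cells, a human monocytic line from a histiocytic lymphoma with SLC19A1 knocked out. The lost gene encodes the reduced folate carrier, which also takes up cyclic dinucleotides, and the knockout was shared by every group. The cells carried a Flag-tagged SLC7A2 or a Flag-tagged SLC7A1 under a tetracycline-responsive (Tet) promoter. The 4 groups were tet-SLC7A2 with doxycycline (dox), tet-SLC7A2 without dox, tet-SLC7A1 with dox and tet-SLC7A1 without dox, with 2 libraries each and 8 in all. Dox was given at 1 µg/mL for 24 h. The induced proteins belong to the cationic amino acid transporters, which carry arginine, lysine and ornithine, so the comparisons ask how the other amino acid carriers of the cell stand when either is induced.

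SLC3A2 is a heavy chain with a single membrane span that does not itself carry amino acids. It is joined by a disulphide bond to a light chain of the SLC7 family and brings it to the cell surface, where the light chain exchanges an amino acid inside the cell for another outside. The light chain sets the substrate: SLC7A5 exchanges large neutral amino acids such as leucine against glutamine, SLC7A6 and SLC7A7 release arginine or lysine against a neutral amino acid with sodium, and SLC7A11 takes up cystine against glutamate. SLC1A5 and SLC1A4 are sodium-dependent exchangers of small neutral amino acids, SLC38A1 and SLC38A2 are sodium-coupled net importers of glutamine and alanine, and SLC43A1 is a sodium-independent facilitator of branched-chain amino acids and phenylalanine. Several of these genes are known targets of ATF4, the transcription factor made when amino acids run short, SLC7A11 also of NRF2, the factor of the oxidative stress response, and SLC1A5, SLC7A5 and SLC43A1 of MYC.

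Libraries held 17309132 to 18441833 expected counts each, an estimated count of read pairs per gene. SLC7A2_Flag, the construct entry of the SLC7A2 line, had 181 and 3643 TPM (length-scaled transcript abundance) with dox, against 0.38 and 6.80 TPM without. SLC7A1_endo_Flag, the construct entry of the SLC7A1 line, had 588 and 252 TPM with dox, against 0.18 and 0 TPM without. SLC19A1 transcripts were still present, at 40.9 to 59.0 TPM over the 8 libraries, which does not check the knockout because no unedited cells were analysed here. The labels do not say that libraries of a group came from separate cultures, so p-values measure a spread that may be technical. All 15 monocytic markers were listed, with a summed level of 7769 and 13621 TPM with dox in the SLC7A2 line, against 9909 to 13378 TPM without, and of 11939 to 12405 TPM with dox in the SLC7A1 line, against 13610 to 17469 TPM without. Most of each sum was 1 gene, CTSG, at 5069 to 12185.5 TPM. MPO and CSF1R were near 0, at no more than 0.47 and 0.53 TPM. ITGAM had 1.05 to 3.12 TPM and PTPRC 4.02 to 11.4 TPM. Summed T cell, epithelial and erythroid markers reached no more than 1.11 TPM, B cell markers 21.6 to 34.7 TPM, nearly all of it CD79A, and fibroblast markers 0.74 to 15.2 TPM, the highest in the SLC7A2-line no-dox library numbered 2. On the first principal component of log2 CPM, with 27.4% of the variance, the SLC7A2-line libraries numbered 2 stood apart, at 68.1 with dox and 55.3 without, against -52.7 to -3.67 in the other 6. Whether the marker sums or this component take part in the values below was not tested.

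The promoter windows of SLC3A2, SLC7A5 and SLC1A5 are shown because these are the 3 carriers with the highest levels and they also lay higher with dox in every same-numbered pair of libraries. Each window holds the bases before a start site and the first 50 after it, on the strand of the gene, from RefSeq in GRCh38.p14. SLC3A2 and SLC1A5 have 3 windows each: for SLC3A2 the 1 with matches is shown and for SLC1A5 the outermost. Capitals mark matches to TGATGNAA, the composite element that ATF4 binds with a CEBP partner, or to TGACNNNGC, the core of the antioxidant response element that NRF2 binds; both strands were searched. TGACNNNGC also admits TGACTCA, the AP-1 motif, as in SLC3A2.
SLC3A2 (chr11:62881449-62881748, plus strand): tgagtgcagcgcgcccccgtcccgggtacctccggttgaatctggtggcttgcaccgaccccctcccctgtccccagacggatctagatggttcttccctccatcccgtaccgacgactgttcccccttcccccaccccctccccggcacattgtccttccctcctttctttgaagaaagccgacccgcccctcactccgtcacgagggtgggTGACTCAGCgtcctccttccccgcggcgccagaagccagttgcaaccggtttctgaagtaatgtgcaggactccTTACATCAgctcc
SLC7A5 (chr16:87869458-87869757, minus strand): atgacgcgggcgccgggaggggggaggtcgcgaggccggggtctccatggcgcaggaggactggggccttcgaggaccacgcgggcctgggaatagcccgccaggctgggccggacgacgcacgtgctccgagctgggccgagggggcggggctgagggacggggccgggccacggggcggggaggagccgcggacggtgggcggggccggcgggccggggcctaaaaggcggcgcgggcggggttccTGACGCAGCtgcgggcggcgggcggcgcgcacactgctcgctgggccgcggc
SLC1A5 (chr19:46788545-46788844, minus strand): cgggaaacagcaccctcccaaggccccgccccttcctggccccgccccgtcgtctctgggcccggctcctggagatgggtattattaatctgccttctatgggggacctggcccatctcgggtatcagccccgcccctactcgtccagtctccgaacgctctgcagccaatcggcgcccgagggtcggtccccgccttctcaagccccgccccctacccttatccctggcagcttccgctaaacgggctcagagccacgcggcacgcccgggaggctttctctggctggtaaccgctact
The SLC3A2 window has a match to the antioxidant core that begins 37 bases before the start site and a match to the composite element on the opposite strand that begins 37 bases after it. The SLC7A5 window has a match to the antioxidant core that begins 2 bases before the start site. The SLC1A5 window at the outermost start site has no match to either.

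The table of windows held 9 of the 10 carriers, with 18 windows in all, since a gene can have several start sites. TGATGNAA was in 4 of the 18, against 3.62% of all 35116 windows. TGACNNNGC was in 5 of the 18, against 13.3% of all windows. The other matches to the composite element are shown with 20 bases on each side, to set them beside that of SLC3A2.
SLC1A4 (chr2:64989372-64989419, plus strand): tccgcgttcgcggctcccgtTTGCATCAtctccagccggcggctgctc
SLC38A1 (chr12:46266493-46266540, minus strand): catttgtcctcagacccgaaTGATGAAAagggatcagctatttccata
SLC1A5 (chr19:46784884-46784931, minus strand): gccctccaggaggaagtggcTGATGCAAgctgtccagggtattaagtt
The matches in SLC1A4 and SLC38A1 begin 7 and 4 bases before a start site, and that in SLC1A5 begins 97 bases before an inner start site of the gene. The other matches to the antioxidant core were in windows of SLC7A6, SLC7A7 and an inner start site of SLC1A5. A match describes letters in a window, and binding was not measured.

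Levels over the 8 libraries spread widely among the 10 carriers. SLC1A5 (Entrez 6510, chromosome 19, 46774883 to 46788594 in GRCh38.p14) had the highest mean level, 414 ± 65.1 TPM (SD, n = 8), and ranked 325 of 15340 genes with a symbol. SLC3A2 (Entrez 6520, chromosome 11, 62856109 to 62888860) followed with 199.6 ± 34.9 TPM and SLC7A5 (Entrez 8140, chromosome 16, 87830023 to 87869507) with 132 ± 29.3 TPM. SLC43A1 (Entrez 8501, chromosome 11, 57484534 to 57515702) had 79.9 ± 6.37 TPM and SLC1A4 (Entrez 6509, chromosome 2, 64988479 to 65023865) 62.2 ± 9.42 TPM. These 5 were the more abundant of the 10 by mRNA level.

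The other 5 were lower. SLC38A1 (Entrez 81539, chromosome 12, 46183063 to 46269043) had 10.7 ± 4.56 TPM and SLC38A2 (Entrez 54407, chromosome 12, 46358188 to 46372773) 10.2 ± 4.14 TPM, in neighbouring positions on the chromosome. SLC7A6 (Entrez 9057, chromosome 16, 68264526 to 68301819) had 3.90 ± 1.58 TPM, SLC7A7 (Entrez 9056, chromosome 14, 22773222 to 22819791) 2.33 ± 0.640 TPM and SLC7A11 (Entrez 23657, chromosome 4, 138164097 to 138242349) 0.866 ± 0.366 TPM. SLC7A11 ranked 10264 of the 15340 genes and rested on 85 to 229 expected counts a library, and SLC7A7 on 30.7 to 91.9. The sum of the 10 ran from 747 to 1138 TPM, of which the 4 highest carriers made up 88.9% to 92.0%.

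Of the 9 neighbours in this order, 3 had ranges over the 8 libraries that did not overlap: SLC1A5 over SLC3A2, SLC7A5 over SLC43A1, and SLC1A4 over SLC38A1. The step from SLC1A4 to SLC38A1 was 5.82-fold in mean TPM, the largest of the 9. Ranges overlapped for the other 6. Within a library the order still held in 8 of 8 for SLC3A2 over SLC7A5, for SLC38A2 over SLC7A6 (2.61-fold in mean TPM) and for SLC7A7 over SLC7A11 (2.70-fold). It held in 7 of 8 for SLC7A6 over SLC7A7, 6 of 8 for SLC43A1 over SLC1A4 and 4 of 8 for SLC38A1 over SLC38A2, the closest of the neighbours at 1.05-fold.

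**Figure D1:**
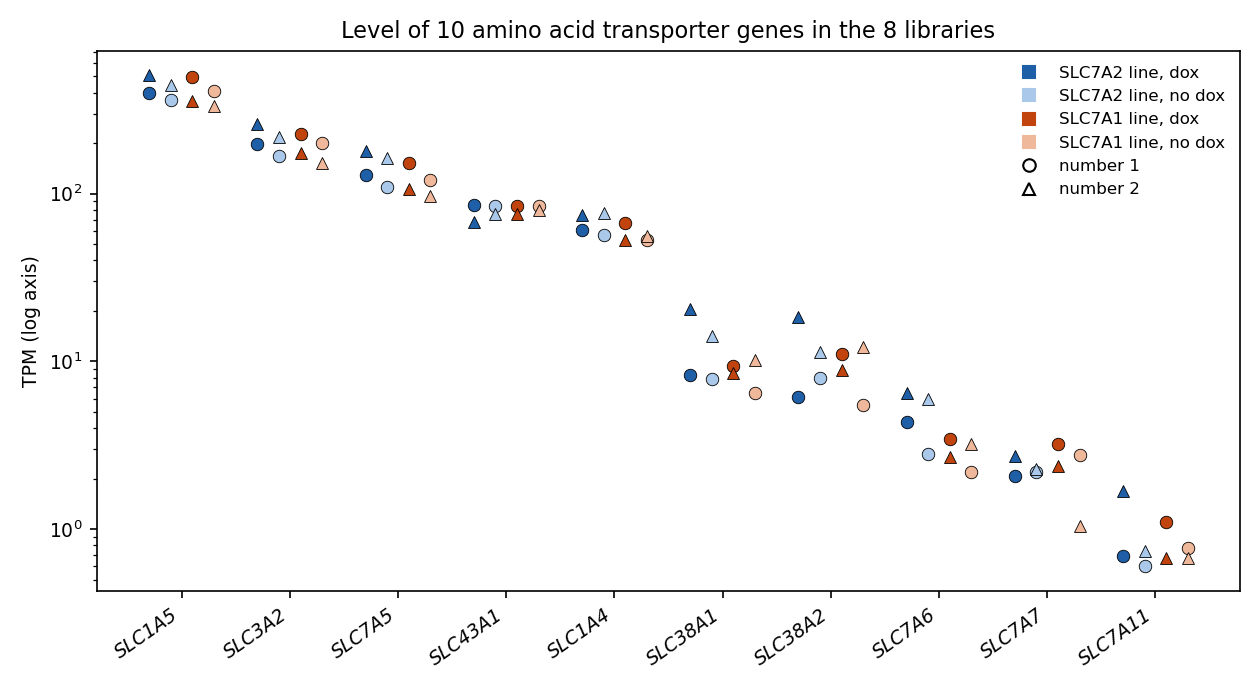
TPM of the 10 transporter genes on a log axis, 1 point per library, with colour for line and dox and shape for the library number. SLC1A5 lies at the top, at 335 to 508 TPM, and SLC7A11 at the bottom, at 0.60 to 1.69 TPM, with a gap between SLC1A4 and SLC38A1.

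The heavy chain SLC3A2 had 198 and 259 TPM with dox in the SLC7A2 line, against 168.5 and 217 TPM without. The SLC7A1 line had 227 and 174 TPM with dox, against 202 and 152 TPM without. In both lines the groups overlapped, and the libraries with dox were higher than the same-numbered libraries without. In the fit across both lines, the log2 fold change with dox was 0.15 ± 0.13 (SE), with a 95% interval of -0.15 to 0.46.

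SLC7A5, the light chain for large neutral amino acids, followed the heavy chain. It had 129 and 179 TPM with dox in the SLC7A2 line, against 109.7 and 162 TPM without, and 152 and 107 TPM with dox in the SLC7A1 line, against 120.4 and 97.0 TPM without. Again each dox library was above its same-numbered partner and the groups overlapped. Its log2 fold change across both lines was 0.16 ± 0.15, with an interval of -0.18 to 0.51.

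SLC7A6 and SLC7A7, the light chains that exchange cationic for neutral amino acids, varied more between libraries. SLC7A6 had 4.36 and 6.50 TPM with dox in the SLC7A2 line, against 2.82 and 5.97 TPM without, and 3.43 and 2.71 TPM with dox in the SLC7A1 line, against 2.19 and 3.23 TPM without. SLC7A7 had 2.08 and 2.73 TPM with dox in the SLC7A2 line, against 2.20 and 2.27 TPM without, and 3.23 and 2.37 TPM with dox in the SLC7A1 line, against 2.75 and 1.05 TPM without. The dox and no-dox groups overlapped for both genes, and the lowest SLC7A7 value was in a single library, the SLC7A1-line no-dox library numbered 2. The log2 fold changes across both lines were 0.21 ± 0.22 for SLC7A6 and 0.26 ± 0.33 for SLC7A7. SLC7A6 had fractional expected counts in all 8 libraries and overlaps SLC7A6OS (14.5 TPM), so its counts are uncertain where reads could belong to either gene. Fractional counts also occurred for SLC43A1 in 8 libraries, SLC7A7 in 6, SLC38A2 in 5 and SLC7A5 in 1. None of these overlaps another measured entry with a known position, and the source of their fractions was not tested.

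SLC7A11, the cystine and glutamate exchanger, had 0.69 and 1.69 TPM with dox in the SLC7A2 line, against 0.60 and 0.74 TPM without. The SLC7A1 line had 1.10 and 0.67 TPM with dox, against 0.77 and 0.67 TPM without. The highest library, the SLC7A2-line dox library numbered 2, was also the library with 3643 TPM of the SLC7A2 construct, and the other 7 lay between 0.60 and 1.10 TPM. The part of the construct level in this value was not tested. Its log2 fold change across both lines was 0.49 ± 0.28, the largest of the 10 carriers in the fit of all 8 libraries, with an interval of -0.15 to 1.13, and ran from 0.18 to 0.65 with 1 library left out. In the SLC7A2 line the value was 0.72 ± 0.41, with an interval of -0.25 to 1.68. Leaving out 1 library gave 0.054 to 1.17, the lowest when its highest library was removed.

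Set against their shared heavy chain, the light chains SLC7A5, SLC7A6, SLC7A7, SLC7A8, SLC7A10 and SLC7A11 summed to 0.636 to 0.798 of the SLC3A2 level in TPM. This ratio of mRNA levels averaged 0.721 ± 0.030 in the SLC7A2 line with dox and 0.748 ± 0.071 without, and 0.688 ± 0.037 in the SLC7A1 line with dox and 0.661 ± 0.035 without (SD, n = 2 each). SLC7A5 made up 93.1% to 93.9% of the light-chain sum in every library. SLC7A11 made up 0.427% to 0.880%, SLC7A6 1.71% to 3.44% and SLC7A7 1.01% to 2.14%. SLC7A8, a light chain with a broad range of neutral substrates, had 1.87 to 2.55 TPM, and SLC7A10 had 1 count in each of 2 libraries and 0 in the other 6.

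**Figure D2:**
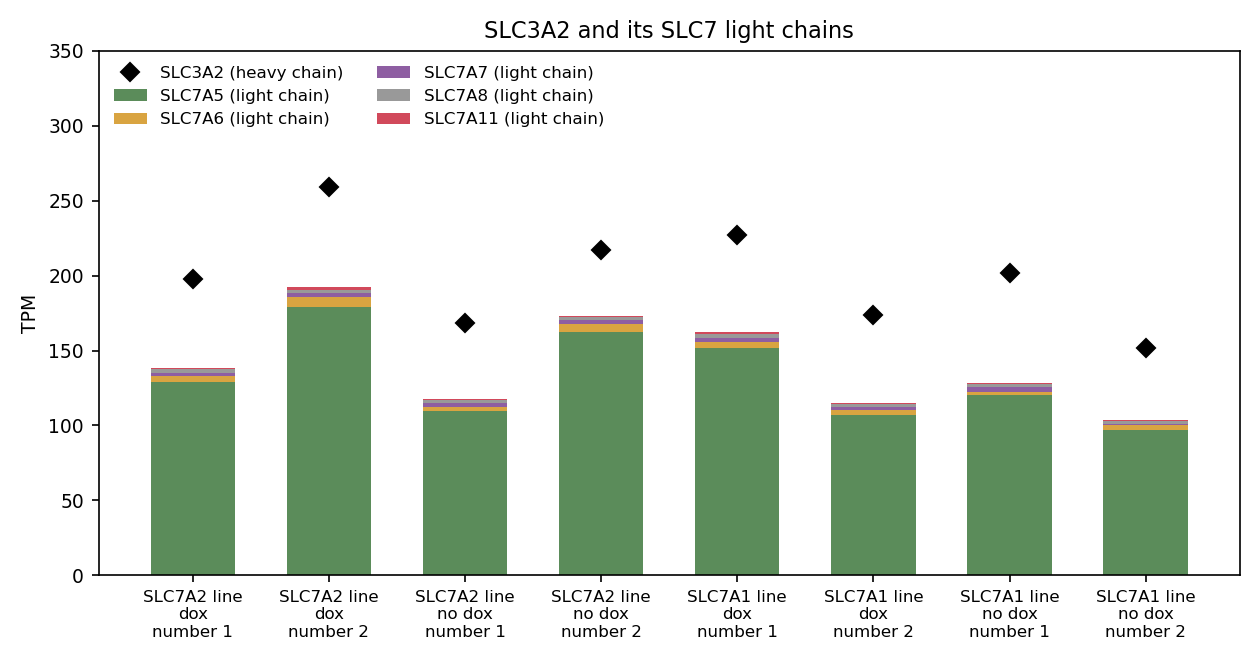
TPM of SLC3A2 (diamonds) and of its SLC7 light chains (stacked bars) in each of the 8 libraries. SLC7A5 fills 93.1% to 93.9% of every bar, and every bar stays below its diamond, at 0.636 to 0.798 of it.

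Among the sodium-dependent exchangers, SLC1A5 had 400.2 and 508 TPM with dox in the SLC7A2 line, against 359 and 443 TPM without. In the SLC7A1 line it had 499 and 356 TPM with dox, against 410.1 and 335 TPM without. The pattern was that of SLC3A2: overlapping groups, with each dox library above its same-numbered partner. The log2 fold change across both lines was 0.13 ± 0.12, with an interval of -0.15 to 0.41.

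SLC1A4, which exchanges alanine, serine, cysteine and threonine, had 60.9 and 74.6 TPM with dox in the SLC7A2 line, against 56.5 and 76.4 TPM without. In the SLC7A1 line it had 67.1 and 53.2 TPM with dox, against 53.1 and 55.6 TPM without. In each line 1 of the 2 dox libraries was above and 1 below its partner by TPM. The log2 fold change across both lines was 0.04 ± 0.11, and the SLC1A5 level was 5.80 to 7.72 times that of SLC1A4.

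The sodium-coupled importers had the widest spread among the carriers above 10 TPM. SLC38A1 had 8.30 and 20.4 TPM with dox in the SLC7A2 line, against 7.88 and 14.2 TPM without, and 9.36 and 8.57 TPM with dox in the SLC7A1 line, against 6.47 and 10.2 TPM without. SLC38A2, a gene known for its induction when amino acids are removed, had 6.10 and 18.4 TPM with dox in the SLC7A2 line, against 7.91 and 11.3 TPM without, and 11.1 and 8.93 TPM with dox in the SLC7A1 line, against 5.48 and 12.3 TPM without. For both genes the SLC7A2-line libraries numbered 2 were well above those numbered 1. SLC38A2 was higher with dox in 1 pair of each line and lower in the other, and its log2 fold change across both lines was 0.21 ± 0.32, beside 0.20 ± 0.26 for SLC38A1.

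SLC43A1, the facilitator, had 86.0 and 67.6 TPM with dox in the SLC7A2 line, against 84.7 and 75.8 TPM without, and 84.5 and 75.9 TPM with dox in the SLC7A1 line, against 84.2 and 80.4 TPM without. Highest over lowest was 1.27-fold in TPM, against 1.44-fold to 3.36-fold for the other 9 carriers. In CPM it was 1.59-fold, above the 1.29-fold of SLC1A4, the 1.45-fold of SLC1A5 and the 1.49-fold of SLC3A2. It was the 1 carrier with a log2 fold change below 0 across both lines, -0.09 ± 0.13.

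No carrier passed the test in any dox comparison. In the edgeR fits without a block the induced constructs did not pass either. SLC7A2_Flag was 487-fold higher with dox in its own line, and SLC7A1_endo_Flag was 4129-fold higher in its own (edgeR adjusted p = 0.138). With the replicate block edgeR called both in their own lines (adjusted p = 0.0022 and 0.011). The constructs do not gauge the test for the carriers, since they varied widely within a group or had few counts without dox. The SE of their log2 fold changes was 1.80 for SLC7A2_Flag and 0.84 for SLC7A1_endo_Flag, against 0.19 for SLC1A5 in each line. Without the block the interval for SLC1A5 across both lines was -0.15 to 0.41. With 2 libraries a group, a missing call says little about changes within such an interval. The fits were made by edgeR's quasi-likelihood test over 17503 entries, with Benjamini-Hochberg adjustment, in 1 model of all 8 libraries. In the SLC7A2 line 0 of 10 carriers were called, beside 0 of all entries (0%), and 0 of 10 had an unadjusted p below 0.05, beside 224 entries (1.28%); DESeq2 called 0 of 10 carriers and 10 entries (0.0571%). In the SLC7A1 line 0 of 10 carriers were called, beside 0 of all entries (0%), and 0 of 10 had an unadjusted p below 0.05, beside 222 entries (1.27%); DESeq2 called 0 of 10 and 9 entries (0.0514%). Across both lines 0 of 10 carriers were called, beside 0 of all entries (0%), and 0 of 10 had an unadjusted p below 0.05, beside 261 entries (1.49%); DESeq2 called 0 of 10 and 1 entry (0.00571%). Adjusted p-values of the carriers were 1 in edgeR for each line. In bulk RNA, fewer cells of a type and less RNA per cell cannot be told apart, and with no construct-free line given dox neither can the drug and the induced transporter.

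The log2 fold change was above 0 in 7 of 10 carriers in the SLC7A2 line, with a median of 0.13, beside 51.3% of all entries. It was above 0 in 9 of 10 in the SLC7A1 line, with a median of 0.17, beside 49.2% of all entries, and in 9 of 10 across both lines, with a median of 0.18, beside 51.7% of all entries. The median of all entries across both lines was 0.01. Among the 4933 genes with a symbol and a mean log2 CPM of at least 5, which include 7 of the carriers, 5 of 7 carriers were above 0 in the SLC7A2 line, beside 39.1% of these genes, 6 of 7 in the SLC7A1 line, beside 56.6%, and 6 of 7 across both lines, beside 48.3%. With 1 library left out, the count above 0 ran from 5 to 9 of 10 in the SLC7A2 line, from 6 to 9 in the SLC7A1 line and from 8 to 9 across both lines. In the SLC7A2 line it was 5 of 10 without the dox library numbered 2 (median -0.013) and without the no-dox library numbered 1 (median -0.0061). In the SLC7A1 line it was 6 of 10 without the dox library numbered 1 (median 0.0064) and without the no-dox library numbered 2 (median 0.068). The comparisons across both lines share their libraries with those within each line, so these counts are not independent.

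**Figure D3:**
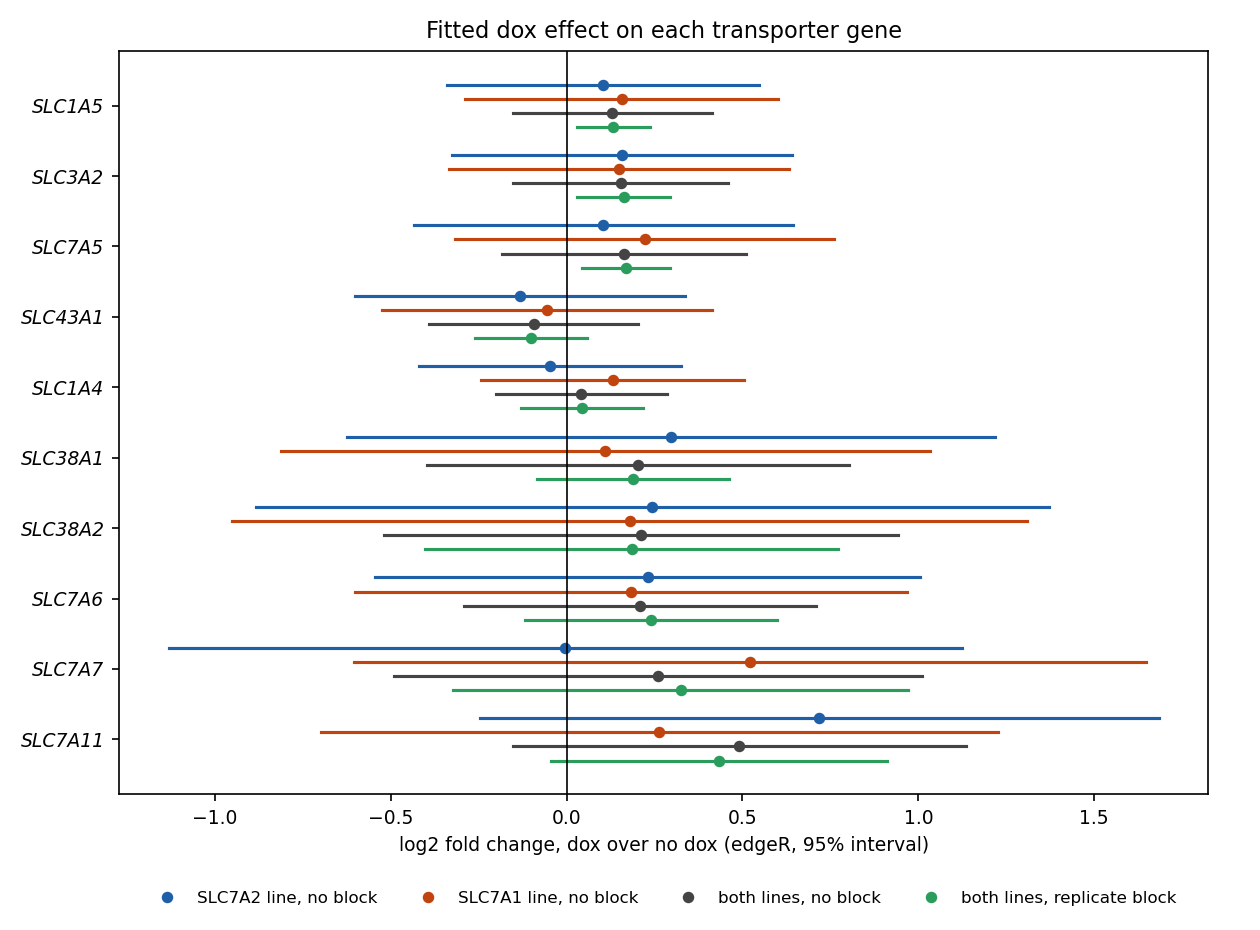
Fitted log2 fold change with dox over no dox for each carrier, with 95% intervals, in the SLC7A2 line, in the SLC7A1 line, across both lines, and across both lines with the replicate block. Without the block every interval crosses 0; with it, those of SLC1A5, SLC3A2 and SLC7A5 lie above 0.

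Same-numbered libraries of a line deviated from their group means together. The correlation across genes was 0.615 in the SLC7A2 line and 0.480 in the SLC7A1 line, so dox was also compared within these pairs. The labels number the libraries but do not say that they are matched. The pair counts and the fits with the replicate block thus rest on a pairing chosen from these same data. CPM here is the read count scaled to depth with TMM. SLC3A2 was higher in 4 of 4 pairs, by 0.20 and 0.12 on the log2 CPM scale in the SLC7A2 line and 0.05 and 0.28 in the SLC7A1 line. SLC7A5 was higher in 4 of 4, by 0.19 and 0.04 in the SLC7A2 line and 0.21 and 0.23 in the SLC7A1 line. SLC1A5 was higher in 4 of 4, by 0.15 and 0.06 in the SLC7A2 line and 0.15 and 0.17 in the SLC7A1 line. The heavy chain, its main light chain and the most abundant exchanger were thus all slightly higher with dox in every pair.

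SLC7A11 was higher in 4 of 4 pairs by log2 CPM, by 0.15 and 1.06 in the SLC7A2 line and 0.38 and 0.09 in the SLC7A1 line, and in 3 of 4 by TPM, where the remaining pair was equal. In all, 4 of 10 carriers were higher in 4 of 4 pairs, beside 7.91% of all entries, and 0 of 10 were lower in 4 of 4, beside 7.07%. Among the 4933 more abundant genes it was 3 of 7 carriers, beside 8.11%. SLC7A6, SLC7A7, SLC1A4 and SLC38A1 were higher in 3 of 4 pairs by log2 CPM, SLC38A2 in 2 and SLC43A1 in 1. SLC1A4 was higher in only 2 of 4 by TPM or when scaled to the library total alone.

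**Figure D4:**
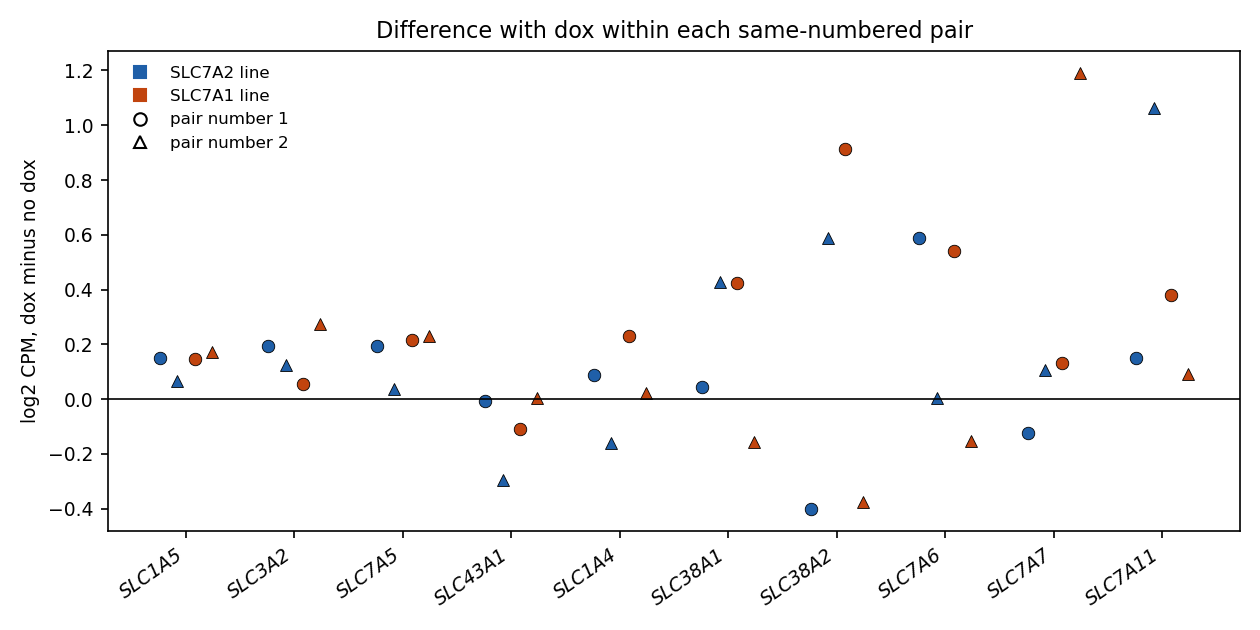
Difference in log2 CPM, dox minus no dox, within each same-numbered pair of libraries, 2 pairs per line. SLC1A5, SLC3A2, SLC7A5 and SLC7A11 lie above 0 in 4 of 4 pairs, and SLC38A2 lies on both sides of 0 in both lines.

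With the replicate block, which takes the difference within same-numbered libraries of a line, edgeR gave across both lines 0.16 ± 0.05 for SLC3A2 (adjusted p = 0.835), 0.17 ± 0.05 for SLC7A5 (adjusted p = 0.832) and 0.13 ± 0.04 for SLC1A5 (adjusted p = 0.832). These were the 3 of 10 carriers with an unadjusted p below 0.05 in that fit, beside 5.83% of all entries. SLC7A11 had 0.43 ± 0.20 (adjusted p = 0.837). In folds the 3 were 1.12, 1.12 and 1.10, with 95% intervals of 1.02 to 1.23, 1.03 to 1.23 and 1.02 to 1.18. With the block edgeR called 0 of 10 carriers across both lines, beside 3 of 17503 entries (0.0171%), both constructs among them. DESeq2 with the block called 0 of 10, beside 106 entries (0.606%), and its lowest adjusted p among the carriers was 0.155, for SLC7A5. Within the lines the block gave an unadjusted p below 0.05 in edgeR for 0 of 10 carriers in the SLC7A2 line, beside 3.54% of all entries, and for 1 of 10 in the SLC7A1 line, SLC7A5 with 0.22 ± 0.08, beside 4.25%. It called 0 of 10 in both lines, beside 1 entry in the SLC7A2 line (0.00571%) and 2 in the SLC7A1 line (0.0114%). The 1 entry was SLC7A2_Flag, and SLC7A1_endo_Flag was among the 2. DESeq2 with the block called 0 of 10 in both, beside 26 entries in the SLC7A2 line (0.149%) and 45 in the SLC7A1 line (0.257%).

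Groups that did not overlap were also counted within a line. Both dox libraries lay above both no-dox libraries for 0 of 10 carriers in the SLC7A2 line, beside 10.2% of all entries, and for 0 of 10 in the SLC7A1 line, beside 11.6%. Both dox libraries lay below both no-dox libraries for 0 of 10 in the SLC7A2 line, beside 9.7%, and for 0 of 10 in the SLC7A1 line, beside 11%. Every carrier thus had overlapping groups in both lines.

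The dox effect of the SLC7A2 line minus that of the SLC7A1 line was tested for each carrier. No carrier passed in edgeR (0 of 10, beside 0% of all entries, with 0 of 10 carriers and 222 entries, or 1.27%, at an unadjusted p below 0.05), and DESeq2 called 0 of 10 and 20 entries (0.114%). The difference was 0.01 ± 0.29 for SLC3A2, -0.12 ± 0.33 for SLC7A5, -0.05 ± 0.27 for SLC1A5 and 0.46 ± 0.58 for SLC7A11. The 95% interval for SLC7A11 ran from -0.90 to 1.81 and that for SLC3A2 from -0.68 to 0.69. With the replicate block the intervals were narrower, -0.62 to 1.39 for SLC7A11 and -0.32 to 0.31 for SLC3A2, and differences within them were not detectable here. The difference was above 0 in 5 of 10 carriers, beside 51% of all entries, and in 3 of 7 carriers among these 4933 more abundant genes, beside 36.2%. With the block edgeR called 0 of 10, beside 0% of all entries, with 0 of 10 at an unadjusted p below 0.05, beside 2.97%, and DESeq2 called 0 of 10, beside 0.12%.

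Between the lines, SLC7A6 stood furthest apart. It had 22.1 and 28.6 CPM with dox and 14.7 and 28.5 CPM without in the SLC7A2 line, against 17.8 and 14.8 CPM with dox and 12.2 and 16.5 CPM without in the SLC7A1 line. The SLC7A2-line values were above those of the SLC7A1 line, except that the no-dox library numbered 1 lay within their range. The log2 fold change of the SLC7A2 line over the SLC7A1 line was 0.61 ± 0.22, or 1.53-fold with a 95% interval of 1.08 to 2.17, and it did not pass edgeR (adjusted p = 0.345). SLC38A1 followed with 0.39 ± 0.26 and SLC43A1 lay at the other end with -0.18 ± 0.13. SLC3A2 (0.02 ± 0.13), SLC1A5 (-0.03 ± 0.12) and SLC7A11 (0.01 ± 0.28) had values near 0.

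In this comparison of the lines edgeR called 0 of 10 carriers, beside 0 of all entries (0%), while 1 of 10, SLC7A6, had an unadjusted p below 0.05, beside 2242 entries (12.8%). DESeq2 called 0 of 10, beside 349 entries (1.99%). The log2 fold change was above 0 in 7 of 10 carriers, with a median of 0.04, beside 49.5% of all entries, and in 5 of 7 among these 4933 more abundant genes, beside 56.9%. A block of the number, which does not pair libraries across lines, left 0 of 10 called in edgeR, beside 1.46% of all entries, with 1 of 10 at an unadjusted p below 0.05, beside 21%, and 0 of 10 in DESeq2, beside 8.46%. Without both SLC7A2-line libraries numbered 2 the log2 fold change was above 0 in 2 of 10, with a median of -0.12, and with 1 library left out in 4 to 8 of 10. It was in 4 of 10 without the SLC7A2-line dox library numbered 2. All 4 SLC7A2-line libraries were above all 4 SLC7A1-line libraries for 0 of 10 carriers, beside 4.35% of all entries, and below them for 0 of 10, beside 5.11%. Each line was made with its own transporter, so line and transporter cannot be told apart.

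The libraries of a group differed by more than the dox and no-dox libraries of a same-numbered pair did. That pairing was chosen because such libraries deviated together, which by itself makes differences within a pair smaller. The mean size of the difference between the numbers of a group exceeded the mean size of the difference within a pair for 10 of 10 carriers, beside 74.8% of all entries. The direction differed by line. In the SLC7A2 line the library numbered 2 was higher than that numbered 1 for 9 of 10 carriers with dox, with a median difference of 0.25 in log2 CPM, and for 8 of 10 without, with 0.31. In the SLC7A1 line it was higher for 0 of 10 with dox, with a median of -0.28, and for 3 of 10 without, with -0.26. Over all entries the share higher in number 2 was 48.6% to 50.4%. Numbers name libraries and have no order.

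**Figure D5:**
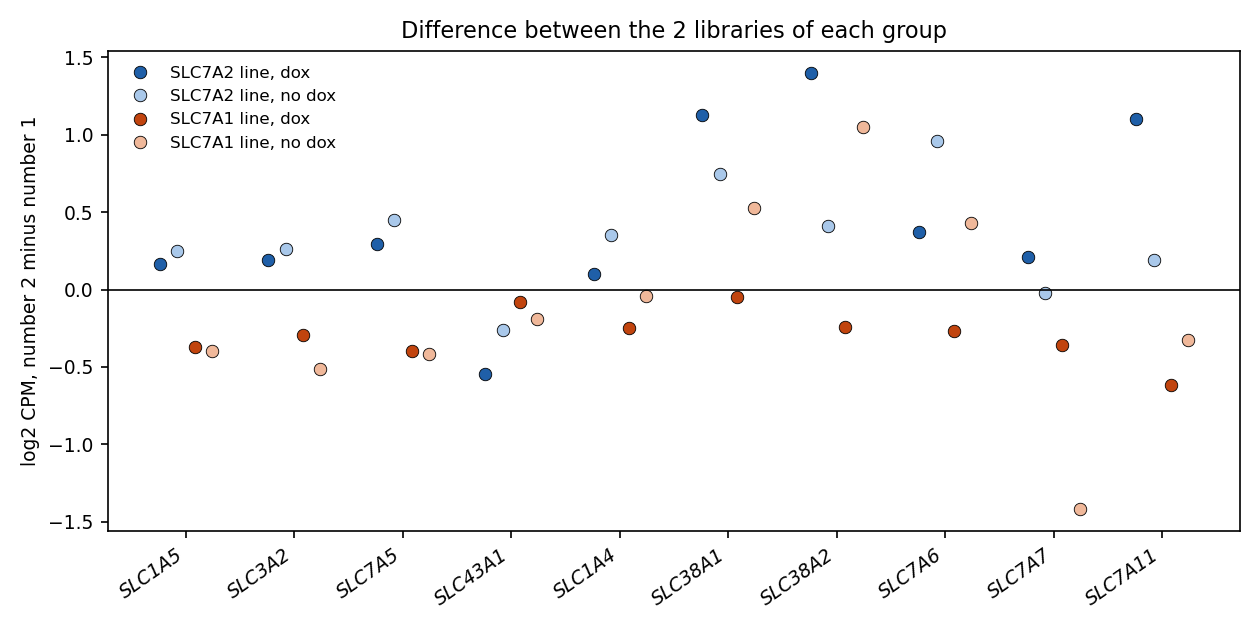
Difference in log2 CPM between the library numbered 2 and that numbered 1 of each group, for each carrier. For SLC1A5, SLC3A2, SLC7A5, SLC1A4 and SLC7A11 both SLC7A2-line groups lie above 0 and both SLC7A1-line groups below 0, while SLC43A1 lies below 0 in all 4.

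Other carriers of amino acids were set beside the 10. Of 26 other plasma membrane carriers 16 were in the files and 8 were tested, of which 4 had a log2 fold change above 0 and 0 were called, with a median of -0.00028. Endogenous SLC7A1 had 11.1 and 18.1 TPM with dox in the SLC7A2 line, against 9.89 and 13.3 TPM without, and 21.7 and 15.1 TPM with dox in the SLC7A1 line, against 11.5 and 12.1 TPM without, where it may share reads with the construct. Its log2 fold change in edgeR was 0.43 ± 0.16 across both lines, 0.24 ± 0.23 in the SLC7A2 line and 0.62 ± 0.23 in the SLC7A1 line. DESeq2 with the replicate block called it across both lines (0.42 ± 0.11, adjusted p = 0.0242), beside 0.606% of all entries. Within the lines it called SLC7A1 in the SLC7A1 line (0.60 ± 0.13, adjusted p = 0.00289), beside 0.257%. In the SLC7A2 line, without that construct, it did not (0.23 ± 0.13), beside 0.149%. The edgeR fit with the block did not call it across both lines (adjusted p = 0.832). The taurine transporter SLC6A6 had 0.08 ± 0.21 and the glutamate transporter SLC1A3 had -0.07 ± 0.15. Endogenous SLC7A2 was listed in 1 library, with 1 count.

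Of 9 lysosomal carriers tested, 5 were above 0 and 0 were called, with a median of 0.02. MFSD12, a cysteine importer of lysosomes and melanosomes, had -0.01 ± 0.12, SLC66A1, which exports arginine and lysine from lysosomes, 0.05 ± 0.12, and SLC15A4, a transporter of histidine and small peptides, 0.02 ± 0.18. Of 10 mitochondrial carriers tested, 4 were above 0 and 0 were called, with a median of -0.03. SLC25A38, a glycine carrier, had 0.01 ± 0.09, SFXN3, a serine carrier, -0.09 ± 0.18, and SLC25A12, an aspartate and glutamate exchanger, 0.14 ± 0.08. The medians across both lines were 0.18 for the 10 carriers and 0.01 for all entries. The lysosomal carriers differed in sign by line, with 3 of 9 above 0 and a median of -0.13 in the SLC7A2 line, and 7 of 9 and a median of 0.099 in the SLC7A1 line; the median of their difference was -0.23, with 0 of 9 called. The mitochondrial carriers had 5 of 10 above 0 in both lines, and the other plasma membrane carriers 4 of 8 in the SLC7A2 line and 5 of 8 in the SLC7A1 line.

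The genes around the carriers in known pathways were set beside them. These lists were chosen with earlier results of these data known, and the genes of a list are not separate observations. Of 22 ATF4 response genes other than carriers, 20 had a log2 fold change above 0 across both lines and 0 were called, with a median of 0.19. PHGDH, the entry enzyme of serine synthesis, had 0.17 ± 0.17, ATF4 itself 0.10 ± 0.18 and SHMT2, the mitochondrial serine hydroxymethyltransferase, 0.10 ± 0.11. With the replicate block DESeq2 called 4 of them, beside 0.606% of all entries, and edgeR called 0, beside 0.0171%. The 4 were PSAT1, also an enzyme of serine synthesis (0.45 ± 0.10, adjusted p = 0.00228), PHGDH (0.17 ± 0.04, adjusted p = 0.0294), SESN2, a leucine sensor (0.35 ± 0.09, adjusted p = 0.0146), and JDP2, a basic leucine zipper repressor (0.39 ± 0.07, adjusted p = 2.22e-05). In the 4 pairs, 13 of the 22 were higher with dox every time, beside 7.91% of all entries, and 0 were lower every time, beside 7.07%. With 1 library left out the number above 0 ran from 13 to 22. Of 17 NRF2 targets other than carriers, 13 were above 0 and 0 were called, with a median of 0.12. Ferritin light chain FTL had -0.04 ± 0.10, thioredoxin TXN -0.07 ± 0.10 and transketolase TKT -0.05 ± 0.09, and DESeq2 with the block called PGD, an enzyme of the pentose phosphate pathway (0.23 ± 0.05, adjusted p = 0.00630). Of 15 MYC and amino acid sensing regulators, 11 were above 0 and 0 were called, with a median of 0.05. MYC had -0.20 ± 0.11, KEAP1, which holds NRF2 in check, -0.07 ± 0.08, and MLX, a partner of MYC-like factors, 0.07 ± 0.13.

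Between the lines the same lists stood differently from the carriers. ATF4 response genes were lower in the SLC7A2 line in 17 of 22, with a median log2 fold change of -0.35, and NRF2 targets higher in 15 of 17, with a median of 0.34, beside a median of 0.04 for the 10 carriers. The edgeR fit called 0 in both lists, as over all entries. With the block of the number edgeR called 1 ATF4 response gene and 2 NRF2 targets, beside 1.46% of all entries, and DESeq2 called 5 and 6, beside 8.46%. The SLC7A1-line libraries numbered 1, with and without dox, were above the other 6 for 14 of the 22 ATF4 response genes, beside 12.6% of all entries. DDIT3, a stress-induced transcription factor named here after its values were seen, had 28.6 and 31.1 TPM with dox and 24.7 and 23.9 TPM without in the SLC7A2 line, against 83.4 and 25.5 TPM with dox and 72.7 and 21.1 TPM without in the SLC7A1 line. With 1 library left out the ATF4 median ran from -0.51 to -0.17, with the value nearest 0 when the SLC7A1-line dox library numbered 1 was left out, and the NRF2 median from 0.23 to 0.44. Without both SLC7A2-line libraries numbered 2 the medians were -0.47 for the ATF4 response, 0.10 for the NRF2 targets and -0.12 for the carriers.

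Genes whose log2 CPM over the 8 libraries was most like that of a carrier were taken among 10312 genes with a symbol and a mean log2 CPM of at least 1. For SLC3A2 they were SKA1 (Pearson r = 0.969), SLC1A5 (0.967) and BEGAIN (0.963). For SLC7A5 they were CDC42SE1 (0.985), CAMK2N1 (0.981) and SDC4 (0.978), and for SLC7A11 LEPROTL1 (0.969), SH3TC1 (0.962) and PPP1R15B (0.962). These values describe 8 libraries that share line, dox and number, and SLC1A5 was the 1 carrier among the 9 genes.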

How the data were processed

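RNA-seq of 8 libraries was analysed. The deposited files hold, for each gene of a library, the authors' expected count, FPKM (not used) and TPM, and gene lengths, per the file headers. Tools named in the submitters' processing notes, without a stated role, are RSEM 1.3.1, Bowtie2 2.3.4.3, HISAT and DESeq2 1.4.5, and the build is hg38. Whether counting used strand is not stated in those sources, which leaves genes that overlap others uncertain. Genes absent from a file were taken as 0. The 10 carriers and the gene lists were chosen with earlier results of these data known.

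Expected counts were rounded and filtered (filterByExpr, minimum count 10, minimum total 15, with 17503 of 22653 entries kept). They were normalized with TMM factors and fitted by edgeR 4.0.16 (quasi-likelihood test, R 4.3.3). The p-values were adjusted by Benjamini-Hochberg with a threshold of 0.05. The script was tested on simulated data that held no effect of library number, so that test does not check the fit under such an effect. Intervals are 95% intervals of the fit. A gene is compared between libraries in CPM and with other genes in TPM. Depth was 17309132 to 18441833 expected counts a library, so 3 counts, a floor for counting error only, were 0.163 to 0.173 CPM. Libraries of a group differed by a chi-square of 20.7 to 45.6 per gene and were counted apart. The alternatives were other scalings, no filter, Entrez genes only, DESeq2 1.42.0, the replicate block, limma 3.58.1 on log2(TPM + 1), a fit of 1 line and leaving out libraries. Leaving out both SLC7A2-line libraries numbered 2 was chosen after seeing the data.

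Library numbers come from the sample titles. Deviations of same-numbered libraries correlated at 0.615 and 0.480 within the lines, where 2 libraries per group give both pairs of a line 1 value, and at 0.0140 to 0.359 across lines. Numbers were therefore paired within a line; in the comparison of the lines the block is the number alone. Named genes were the 10 carriers, SLC7A1, SLC7A2, SLC19A1 and the constructs, from each other list the called genes or, with none, the 3 with the highest mean TPM, and the 3 genes most like SLC3A2, SLC7A5 and SLC7A11. Promoter windows came from RefSeq (GRCh38.p14). Protein sequences were not analysed here.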

Additional observations from a re-analysis of the deposited data

How the results depend on the processing

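No carrier was called in any comparison under any of up to 19 settings. Of 860 log2 fold changes under alternatives 758 kept their direction and 102 turned it, 73 of them when 1 library was left out; the cause was not tested. The lowest adjusted p was 0.0526, for SLC7A6 between the lines in DESeq2 with the replicate block. Over all entries the calls ran from 0 to 26 for dox in the SLC7A2 line, 0 to 45 in the SLC7A1 line, 0 to 106 across both lines, 0 to 21 for the difference between the effects and 0 to 1480 between the lines, each highest in DESeq2 with the block. The block called no carrier. Levels rescaled over Entrez genes moved by less than 1 SD for 10 of 10 carriers.

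For dox in the SLC7A2 line, the values that turned were 0.034 (SLC7A7) scaled to the library total, 0.067 (SLC7A7) and 0.035 (SLC1A4) in limma, and 0.088 (SLC1A4) and -0.40 (SLC38A2) without both SLC7A2-line libraries numbered 2. For the difference between the effects they were -0.012 (SLC3A2) with no filter, -0.0056 (SLC3A2) and -0.14 (SLC38A2) in edgeR with the replicate block, -0.010 (SLC3A2) and -0.18 (SLC38A2) in DESeq2 with the block, -0.078 (SLC38A2) in limma, and -0.11 (SLC7A11), -0.061 (SLC38A1), -0.58 (SLC38A2) and 0.051 (SLC43A1) without both libraries numbered 2. Across both lines it was -0.013 (SLC38A2) without both. Between the lines they were 0.014 (SLC1A5) scaled to the library total, -0.010 (SLC7A11) over Entrez genes, -0.012 and -0.0052 (SLC7A11) with the block in edgeR and DESeq2, 0.033 (SLC7A7) and 0.10 (SLC1A5) in limma, and, without both, -0.094 (SLC3A2), -0.057 (SLC7A5), -0.38 (SLC7A11), -0.022 (SLC1A4), -0.16 (SLC38A1), -0.47 (SLC38A2) and 0.0056 (SLC43A1).

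With 1 library left out, dox in the SLC7A2 line ran for SLC7A5 from -0.10 to 0.35, SLC7A6 -0.17 to 0.79, SLC7A7 -0.11 to 0.10, SLC1A4 -0.21 to 0.14, SLC1A5 -0.015 to 0.23, SLC38A1 -0.37 to 0.76, SLC38A2 -0.62 to 0.78 and SLC43A1 -0.43 to 0.12. In the SLC7A1 line the ranges were -0.085 to 0.43 for SLC3A2, -0.015 to 0.42 for SLC7A6, -0.036 to 1.44 for SLC7A7, -0.082 to 0.54 for SLC7A11, -0.040 to 0.37 for SLC1A5, -0.13 to 0.40 for SLC38A1, -0.25 to 0.80 for SLC38A2 and -0.15 to 0.044 for SLC43A1. Across both lines they were -0.017 to 0.53 for SLC7A7, -0.027 to 0.13 for SLC1A4, -0.082 to 0.38 for SLC38A1, -0.13 to 0.46 for SLC38A2 and -0.20 to 0.013 for SLC43A1. For the difference between the effects they were -0.27 to 0.24 for SLC3A2, -0.34 to 0.13 for SLC7A5, -0.36 to 0.61 for SLC7A6, -1.44 to 0.031 for SLC7A7, -0.21 to 0.91 for SLC7A11, -0.34 to 0.0087 for SLC1A4, -0.26 to 0.14 for SLC1A5, -0.48 to 0.65 for SLC38A1, -0.80 to 0.61 for SLC38A2 and -0.37 to 0.18 for SLC43A1. Between the lines they were -0.071 to 0.13 for SLC3A2, -0.45 to 0.091 for SLC7A7, -0.31 to 0.16 for SLC7A11, -0.11 to 0.051 for SLC1A5 and -0.28 to 0.31 for SLC38A2.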
